A study of Arabidopsis thaliana with 15 samples.

Results

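Leaf transcript levels of the Arabidopsis thaliana mutant hy5-1 were compared with those of wildtype after UV-B exposure, using the 3 hy5-1 UV-B arrays and the 3 wildtype UV-B arrays of a series of 15. The arrays were taken by their labelled genotype and light treatment, and by no measured value. All plants, wildtype included, belonged to the accession Landsberg erecta. They stood in compost at 21 °C for 3 weeks, with white light given continuously at 25 µmol m-2 s-1. The UV-B groups then received UV-B at 3 µmol m-2 s-1 for 4 h. Besides hy5-1 UV-B and wildtype UV-B, the series holds wildtype white light, uvr8-1 white light and uvr8-1 UV-B, with 3 arrays in each group. These other 9 arrays entered the estimate of the spread and are given as reference levels. No hy5-1 arrays exist for white light, so the comparison is of genotypes under UV-B, and how hy5-1 itself responded to UV-B cannot be told. Each mutant was represented by 1 allele. The labels call the arrays of a group biological replicates and do not say how many plants each held, so the p-values measure the spread between these samples.

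UVR8 is the photoreceptor through which plants perceive UV-B. The activated receptor interacts with the ubiquitin ligase COP1, and transcription of HY5 and of its close relative HYH increases. HY5 is a bZIP transcription factor that binds ACGT-containing promoter elements and promotes light responses, among them the synthesis of flavonoids and sinapate esters that absorb UV-B in the leaf epidermis.

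The hy5-1 arrays had a higher 3' to 5' ratio of control transcripts than the wildtype UV-B arrays. The ratio compares probe sets at the 3' and 5' ends of one transcript, and a higher value means that the 5' end was represented less. For GAPDH, the 3' minus 5' difference was 2.97, 3.17 and 1.82 log2 units in hy5-1 and 1.02, 0.92 and 0.96 in wildtype under UV-B. The hy5-1 arrays all lay above the wildtype ones, and replicate 3 was the nearest to them. The group means were 2.65 ± 0.73 and 0.97 ± 0.05 (SD, n = 3), a difference of 1.68 with an exact 2-sided permutation p of 0.1 (0.15 after Benjamini-Hochberg adjustment over the 3 control transcripts). For ubiquitin, the values were 2.102, 1.927 and 1.482 in hy5-1 and 1.240, 1.219 and 1.104 in wildtype, a difference of 0.65 with the same exact p of 0.1 (0.15 adjusted). For actin, 3.58, 4.03 and 3.98 overlapped with 3.06, 3.77 and 3.64, and the difference of 0.38 had an exact p of 0.3. An exact p of 0.1 is the smallest that 3 arrays against 3 allow. The mean over the 3 transcripts, used below as an index, was 2.79 ± 0.32 in hy5-1 and 1.88 ± 0.10 in wildtype under UV-B (SD, n = 3), and ran from 1.79 to 2.36 on the other 9 arrays. Each hy5-1 array was therefore above all 12 others.

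**Figure D1:**
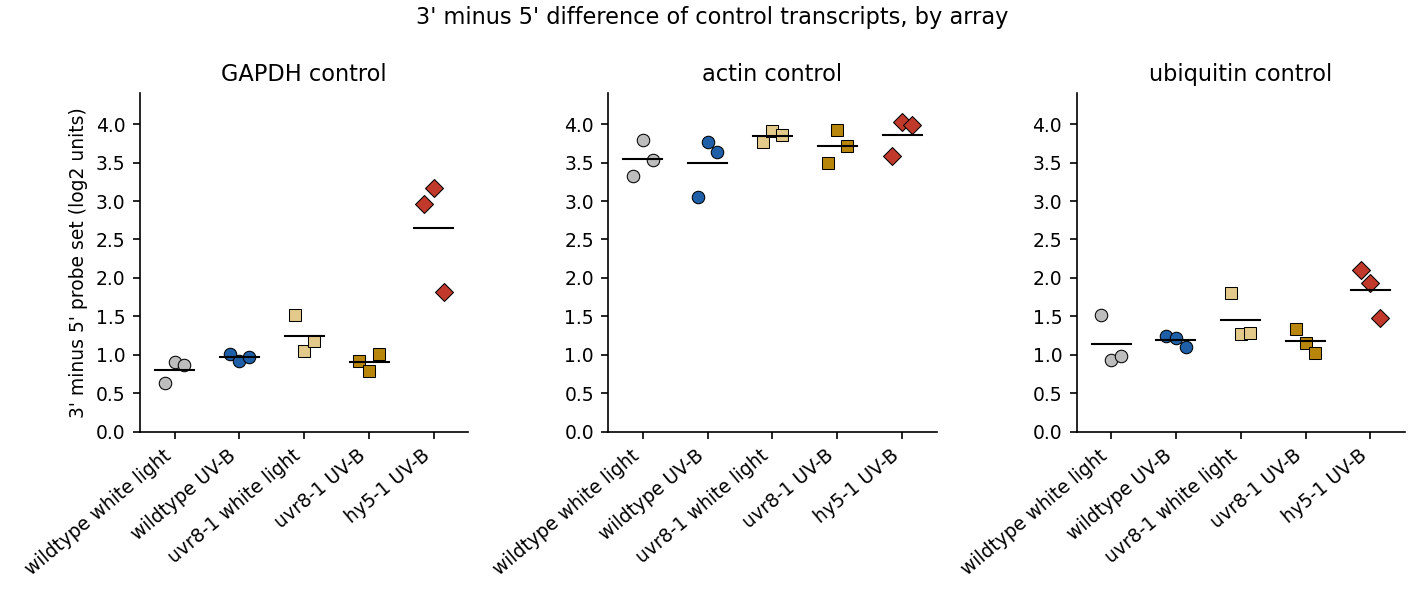
The 3' minus 5' difference in log2 units (y axis) of the GAPDH, actin and ubiquitin control transcripts on each array of the 5 groups, with 1 point per array and a line at each group mean. The hy5-1 arrays lie between 1.82 and 3.17 for GAPDH and the wildtype UV-B arrays between 0.92 and 1.02.

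The label hy5-1 is not checked by its targeted gene, because no probe set was paired with HY5 alone, and the same held for UVR8 and COP1. A gene counts as measured where the annotation paired a probe set with it alone. A gene that was not measured may still be on the arrays. Of the leaf markers, 3 of 12 were measured and none passed the test. RCA, which encodes Rubisco activase, averaged 12.4 in both groups, and LHCB4.2 and ATPC1 averaged 8.99 and 10.99 in hy5-1 against 8.62 and 10.90 in wildtype. AMS, the 1 measured of 7 flower markers, averaged 2.85 and 2.70, and the root hair expansins EXPA7 and EXPA18 were also at or under 3.74, the level below which the dimmest 40% of probe sets lie. The third measured root marker, PYK10, averaged 6.88 in hy5-1 and 7.59 in wildtype (adjusted p = 0.079). Of 8 markers listed for epidermis, trichomes and guard cells, 3 were measured, 1 was lower and none was higher (4.07% and 2.67% over all genes). The guard cell factor FMA was lower (-0.55 ± 0.15, adjusted p = 0.0475), a call lost without any 1 of the 6 arrays. SPCH and MUTE did not pass the test (adjusted p = 0.537 and 0.22). No seed or vascular marker of the lists was measured. In such bulk leaf samples, fewer cells of a type and less RNA per cell cannot be told apart.

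Of 22746 probe sets, 1095 (4.81%) were lower in hy5-1 than in wildtype under UV-B and 631 (2.77%) were higher, at an adjusted p under 0.05 in the limma fit of all 15 arrays. The lower probe sets had a median difference of -0.80 and the higher ones of 0.60 on the log2 scale. A difference of at least 2-fold was reached by 329 of the lower and 76 of the higher probe sets. Among the 13356 genes with a probe set of their own, 543 (4.07%) were lower and 357 (2.67%) were higher, and the median difference over all genes was 0.05. The groups of 3 arrays did not overlap for 28.2% of these genes and for 29.2% of all probe sets, so an absence of overlap alone was frequent. Without hy5-1 replicate 1, 478 probe sets were lower and 225 higher, without hy5-1 replicate 2 these numbers were 363 and 187, and without wildtype replicate 2 they were 456 and 223. Without wildtype replicate 3, 376 were higher. With the 3' minus 5' index in the model as a covariate, 2 probe sets were called lower and none higher, and 983 had an unadjusted p under 0.05 in place of 5677. The median standard error over all probe sets was then 0.34 in place of 0.15. The part of transcript representation in the counts cannot be told apart from genotype in this design, and the covariate value is given below for the genes that the results turn on. With replicates 1 and 2 of hy5-1 left out, the arrays with the highest index, 23 probe sets were lower and 6 were higher, in a fit that assumes that the lone array varies like the other groups.

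AT5G62210, which encodes a protein of the ATS3-like embryo-specific family, gave 3.58, 4.00 and 3.94 in hy5-1 and 7.17, 8.63 and 7.64 in wildtype under UV-B. The hy5-1 arrays were at the level of wildtype in white light, 4.23 ± 0.43, and of uvr8-1 under UV-B, 3.56 ± 0.13 (SD, n = 3). The difference of -3.97 ± 0.30 (SE), or 15.7-fold, was the largest of all genes (adjusted p = 3.34e-05), and it was -4.59 ± 0.70 with the index as a covariate. The probe set 250533_at, which the annotation pairs with no gene, behaved alike. It gave 5.09, 4.85 and 4.64 in hy5-1 and 8.15, 9.09 and 8.55 in wildtype, against 4.59 ± 0.26 in white light (SD, n = 3), a difference of -3.74 ± 0.20 (adjusted p = 1.13e-06). It was 1 of the 2 probe sets still called with the index in the model, at -4.35. The unpaired probe set 250207_at followed with 7.41, 6.73 and 7.77 in hy5-1 against 10.58, 10.98 and 10.29 in wildtype, a difference of -3.32 ± 0.30 (adjusted p = 0.000118), and -2.55 with the index.

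**Figure D2:**
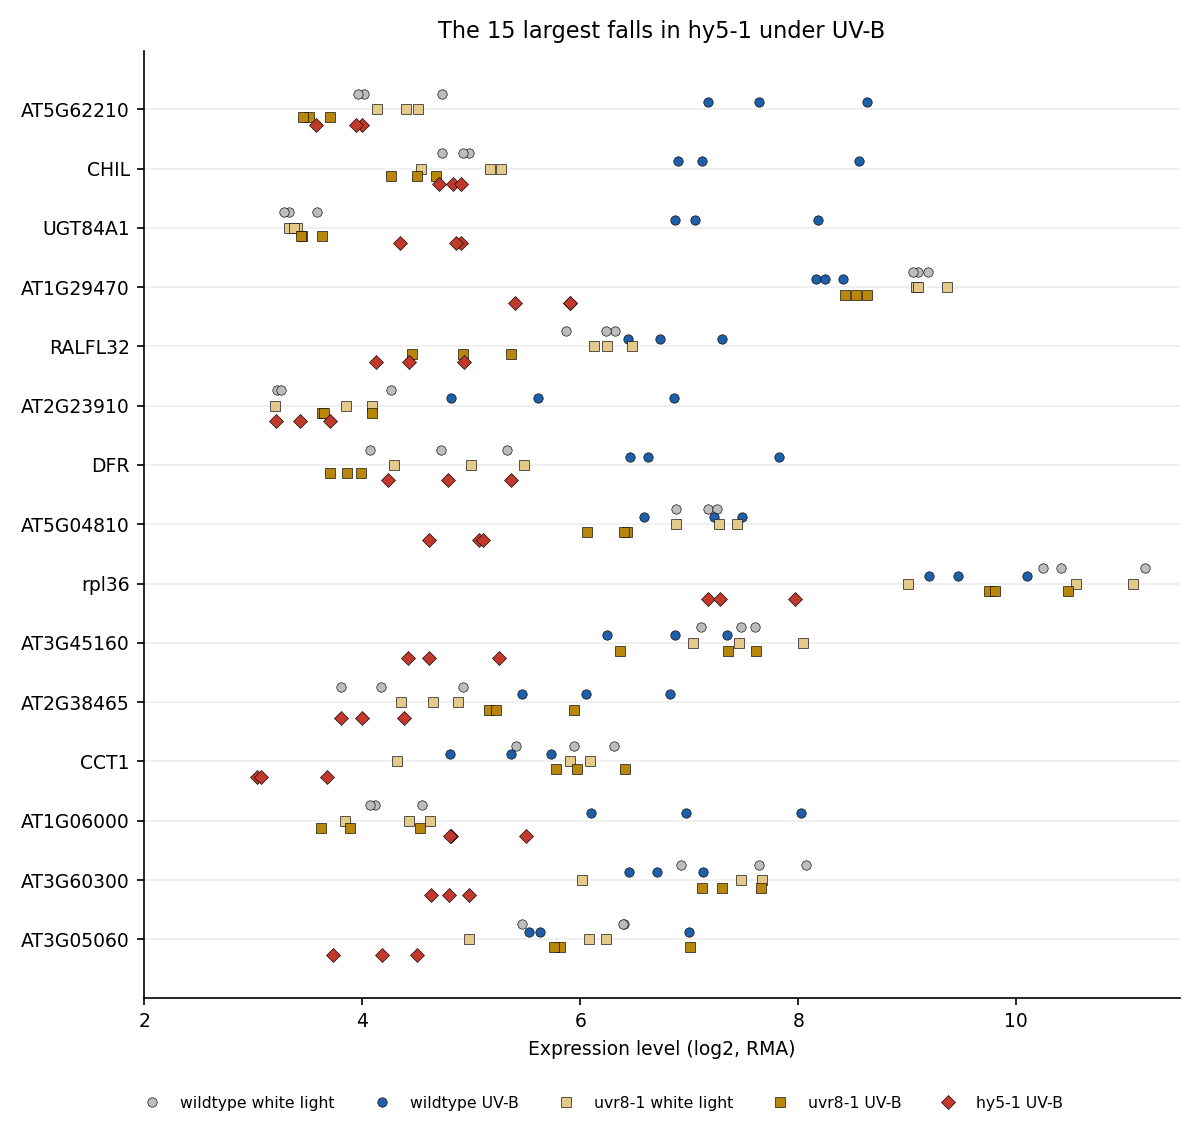
Expression level (x axis, log2 RMA value) on each array of the 5 groups for the 15 genes with the largest falls in hy5-1 against wildtype under UV-B, with 1 point per array. For AT5G62210 and CHIL the 3 hy5-1 arrays lie beside the white light and uvr8-1 arrays, while for AT1G29470 they lie below the arrays of all 4 other groups.

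Flavonoid enzymes were lower in hy5-1. Of 23 enzymes listed, 10 were measured, of which 6 were lower and none was higher (background 4.07% and 2.67%), and the median difference of the 10 was -1.28 beside 0.05 over all genes. CHIL, a chalcone isomerase-like protein that aids chalcone formation at the entry of the pathway, gave 4.83, 4.70 and 4.90 in hy5-1 and 6.90, 8.56 and 7.12 in wildtype under UV-B. Wildtype in white light averaged 4.88 ± 0.13 and uvr8-1 under UV-B 4.48 ± 0.21 (SD, n = 3), so that only the wildtype UV-B arrays stood high. The difference was -2.71 ± 0.33 (adjusted p = 0.000832), a fold of 6.55, and it was -3.15 with the index in the model. DFR, the dihydroflavonol reductase of the anthocyanin branch, gave 4.78, 4.24 and 5.36 against 6.62, 7.83 and 6.46. Its groups did not overlap, which the choice of the 15 largest falls required. DFR differed by -2.18 ± 0.42 (adjusted p = 0.0092), a call that was lost without hy5-1 replicate 2 (adjusted p = 0.051).

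Of 6 measured enzymes that attach sugars to flavonoids, 4 were lower, and UF3GT and UGT78D3 did not pass the test. AT1G06000, a flavonol rhamnosyltransferase, gave 4.81, 4.81 and 5.50 in hy5-1 and 6.09, 8.03 and 6.97 in wildtype, a difference of -1.99 ± 0.40 (adjusted p = 0.0122). This call was lost without hy5-1 replicate 1 (adjusted p = 0.0519) or replicate 2 (0.0576). AT4G14090, an anthocyanin glucosyltransferase, gave 4.11, 3.20 and 3.84 against 5.05, 6.37 and 5.15, a difference of -1.81 ± 0.33 (adjusted p = 0.00712). Both genes were highest on wildtype replicate 2. Wildtype in white light averaged 4.25 ± 0.27 for AT1G06000, below all 3 hy5-1 arrays, and 3.997 ± 0.303 for AT4G14090, within their range (SD, n = 3). UGT78D1, another flavonol rhamnosyltransferase, gave 5.28, 4.77 and 5.29 against 6.39, 7.21 and 6.11, a difference of -1.46 ± 0.29 (adjusted p = 0.0115, and 0.0594 without hy5-1 replicate 2). Its white light level in wildtype was 6.82 ± 0.41 (SD, n = 3), above 2 of the 3 wildtype UV-B arrays, whereas the other 5 called enzymes were lower in white light than on any wildtype UV-B array.

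UGT78D2, a flavonoid glucosyltransferase, stood nearer to wildtype UV-B than to white light in hy5-1. It gave 8.34, 7.87 and 8.38 in hy5-1 and 8.63, 9.72 and 8.96 in wildtype, while wildtype in white light averaged 6.14 ± 0.19 and uvr8-1 under UV-B 5.82 ± 0.17 (SD, n = 3). All hy5-1 arrays were below all wildtype UV-B arrays and well above the uvr8-1 arrays. The difference from wildtype was -0.91 ± 0.23 (adjusted p = 0.0307). The call held without hy5-1 replicate 3 or wildtype replicate 1 and was lost without any other array, with an adjusted p of up to 0.132. The anthocyanin xylosyltransferase UF3GT differed by -1.09 ± 0.31 and just missed the threshold (adjusted p = 0.0509). The anthocyanin malonyltransferase AT5MAT differed by -0.59 ± 0.25 (adjusted p = 0.17). BAN and UGT78D3 were dim on every array, between 2.77 and 3.27 on the 6 compared. Without hy5-1 replicate 2, the count of lower flavonoid enzymes was 2, with replicates 1 and 2 both left out it was 0, and with the index in the model it was 0. The covariate differences of the 6 called enzymes ran from -3.15 to -0.95.

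Of the 26 genes listed for phenylpropanoids and sinapate, 9 were measured, 3 were lower and none was higher (4.07% and 2.67% over all genes), with a median difference of -0.07. UGT84A1, a glucosyltransferase of hydroxycinnamates, gave 4.90, 4.35 and 4.86 in hy5-1 and 7.05, 8.18 and 6.87 in wildtype under UV-B. Wildtype in white light averaged 3.40 ± 0.16 and uvr8-1 under UV-B 3.50 ± 0.11 (SD, n = 3), so hy5-1 lay between these and wildtype UV-B. The difference was -2.66 ± 0.26 (adjusted p = 0.000243), or 6.33-fold, and -2.61 ± 0.64 with the index in the model. Its relative UGT84A3 gave 6.46, 5.71 and 6.27 against 7.45, 7.15 and 6.92, a difference of -1.03 ± 0.26 (adjusted p = 0.0329). ALDH2C4, an aldehyde dehydrogenase that makes ferulate and sinapate, gave 9.48, 9.51 and 9.66 against 10.09, 10.55 and 10.29, a difference of -0.76 ± 0.17 (adjusted p = 0.0182). In both, hy5-1 was above wildtype in white light, which averaged 4.60 ± 0.41 and 8.15 ± 0.18 (SD, n = 3). Their differences were smaller with the index in the model, at -0.33 for UGT84A3 and -0.50 for ALDH2C4. Both calls were lost without hy5-1 replicate 2 (adjusted p = 0.141 and 0.0707) and without wildtype replicate 2 (0.089 and 0.0781), and likewise without wildtype replicate 1 for UGT84A3 (0.092) and hy5-1 replicate 1 for ALDH2C4 (0.0677). HCT, which makes shikimate esters of the lignin pathway, and the lignin enzyme CCR2 differed by 0.21 ± 0.22 and 0.33 ± 0.69, and neither passed the test (adjusted p = 0.596 and 0.803). The count of lower genes in this list was 1 without hy5-1 replicate 2 and 1 without wildtype replicate 2.

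The family of UDP-glycosyltransferases, to which several of these enzymes belong, had 47 measured members. Of these 7 were lower and none was higher (4.07% and 2.67% over all genes), with a median difference of -0.10. Beside UGT84A1, UGT84A3, UGT78D1 and UGT78D2, the lower members were UGT76E12, UGT73B1 and UGT71B1. UGT76E12 gave 4.17, 3.16 and 4.29 in hy5-1 and 5.64, 4.995 and 5.62 in wildtype, a difference of -1.54 ± 0.34 (adjusted p = 0.0171). UGT73B1 differed by -1.45 ± 0.39 and UGT71B1 by -1.30 ± 0.31 (adjusted p = 0.0418 and 0.0236). The UGT76E12 call was lost without hy5-1 replicate 2 (adjusted p = 0.0752) or wildtype replicate 3 (0.0519). UGT71B1 lost it without hy5-1 replicate 1 (0.0864), hy5-1 replicate 2 (0.1) or wildtype replicate 2 (0.0977), and UGT73B1 without any array but hy5-1 replicate 3 (up to 0.165). With the index in the model these 3 differences were -0.58, 0.33 and -0.41, a smaller size in each and another sign for UGT73B1. Without hy5-1 replicate 2, 1 of the 47 was lower, and the count was 4 without hy5-1 replicate 1, 3 without wildtype replicate 2 and 4 without wildtype replicate 3.

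**Figure D3:**
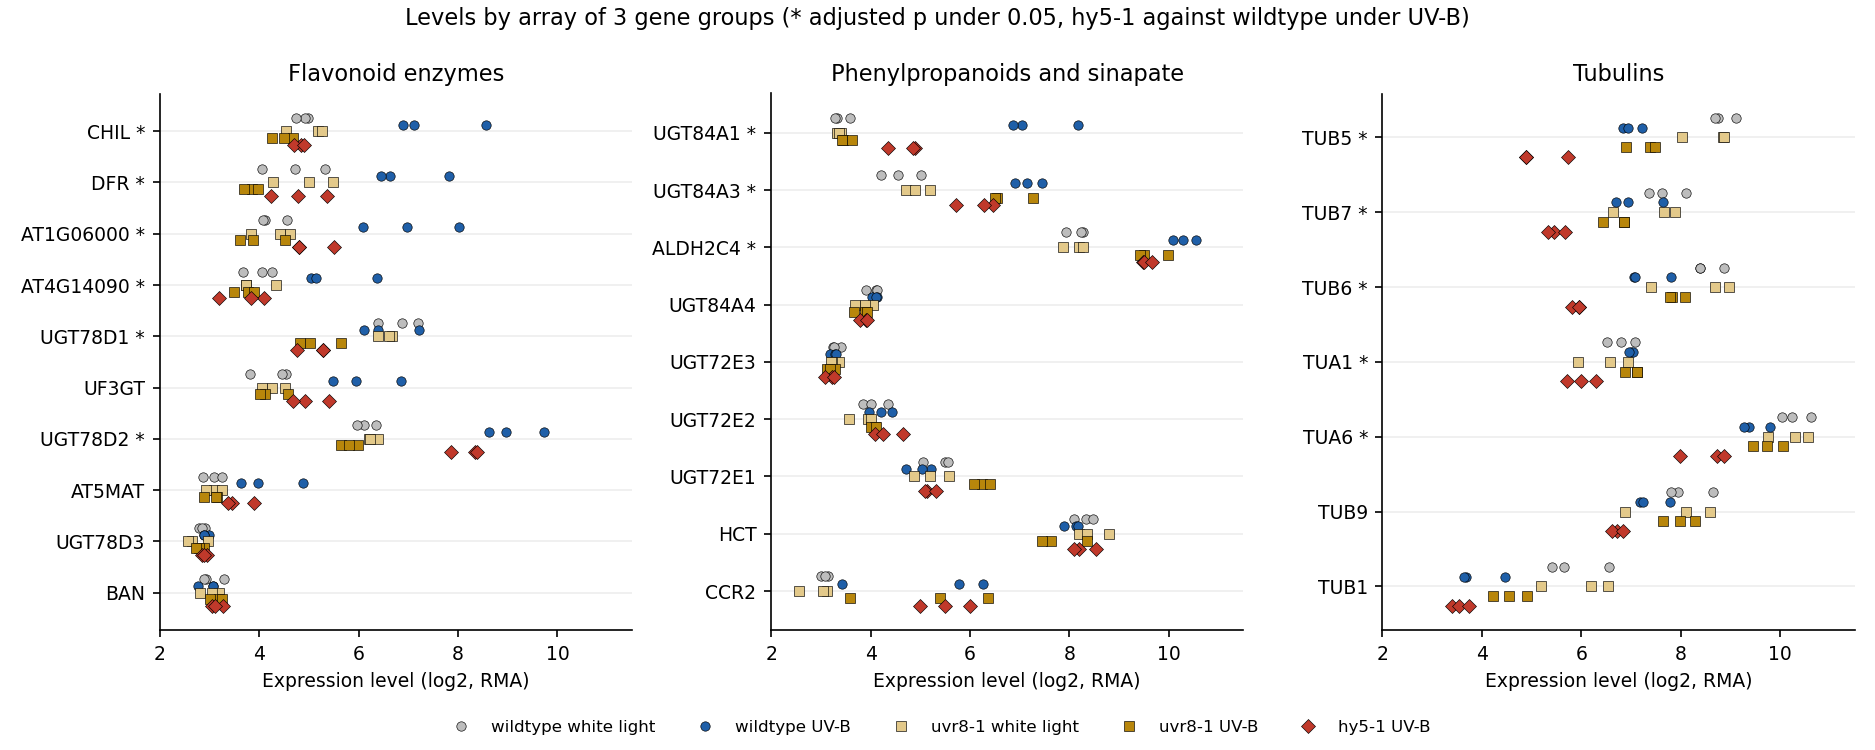
Expression level (x axis, log2 RMA value) on each array of the 5 groups for the measured flavonoid enzymes, phenylpropanoid genes and tubulins, with 1 point per array and an asterisk at genes with an adjusted p under 0.05 for hy5-1 against wildtype under UV-B. Of the flavonoid enzymes 6 of 10, of the phenylpropanoid genes 3 of 9 and of the tubulins 5 of 7 carry the asterisk.

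HYH, the closest relative of HY5, was present at a high level in hy5-1 under UV-B. It gave 7.41, 7.68 and 7.26 in hy5-1 and 7.59, 8.43 and 8.15 in wildtype, while wildtype in white light averaged 3.57 ± 0.77 and uvr8-1 under UV-B 5.47 ± 0.87 (SD, n = 3). The hy5-1 and wildtype UV-B arrays overlapped. The difference was -0.61 ± 0.45 and did not pass the test (adjusted p = 0.431). It was the only one of HYH, HY5, UVR8 and COP1 that was measured, and 4 of 50 light-signalling genes in all were measured. Of these 1 was lower (4.07% over all genes). AT3G52740, the cryptochrome inhibitor BIC1, gave 5.32, 5.27 and 4.59 in hy5-1 and 5.88, 7.34 and 6.20 in wildtype, a difference of -1.41 ± 0.31 (adjusted p = 0.0172). Its level in hy5-1 stayed above that of wildtype in white light, 3.54 ± 0.26, and of uvr8-1 under UV-B, 2.95 ± 0.19 (SD, n = 3). The related inhibitor AT3G44450 (BIC2) gave 6.64, 6.76 and 6.58 against 6.603, 7.615 and 6.374, with a difference of -0.21 ± 0.46 (adjusted p = 0.817). Among 3 measured clock genes 1 was lower (4.07% over all genes). COR27, a cold-induced regulator of the clock, differed by -1.38 ± 0.31 (adjusted p = 0.0202), while GI differed by 0.05 ± 0.38 (adjusted p = 0.952). HYH, AT3G52740 and COR27 differed by -1.76, -2.47 and -1.15 with the index in the model. The COR27 call was lost without hy5-1 replicate 1 (adjusted p = 0.0586), hy5-1 replicate 2 (0.0847) or wildtype replicate 3 (0.0685).

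Of the 15 largest falls, 7 were also lower in uvr8-1 than in wildtype under UV-B by the same rule, namely AT5G62210, CHIL, UGT84A1, RALFL32, AT2G23910, DFR and AT1G06000. The mutants were compared with the same wildtype arrays, so the values are given side by side and the overlap is no separate result. The share of all genes called in uvr8-1 is not given here, so 7 of 15 cannot be set against it. RALFL32, of the RALF family of signalling peptides, gave 4.93, 4.13 and 4.43 in hy5-1 and 6.44, 7.30 and 6.73 in wildtype under UV-B, and uvr8-1 averaged 4.92 ± 0.46 (SD, n = 3). Its level in wildtype in white light was 6.14 ± 0.24 (SD, n = 3), above all 3 hy5-1 arrays. The difference between hy5-1 and wildtype was -2.33 ± 0.27 (adjusted p = 0.000562) and that of uvr8-1 was -1.91 (adjusted p = 0.00104). AT2G23910, of a family of NAD(P)-binding proteins related to cinnamoyl-CoA reductases, gave 3.21, 3.43 and 3.70 in hy5-1 and 4.82, 6.86 and 5.61 in wildtype, a difference of -2.32 ± 0.43 (adjusted p = 0.00768). The hy5-1 differences were -2.44 for RALFL32 and -2.29 for AT2G23910 with the index in the model.

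Another gene, AT1G29470, was lower in hy5-1 than in every other group. It encodes a putative methyltransferase and gave 5.91, 5.90 and 5.40 in hy5-1 and 8.16, 8.41 and 8.24 in wildtype under UV-B. Wildtype in white light averaged 9.12 ± 0.07 and uvr8-1 under UV-B 8.53 ± 0.10 (SD, n = 3), and none of the arrays of the other 4 groups came near those of hy5-1. The difference of -2.54 ± 0.14 had an adjusted p of 1.13e-06, the lowest among the named genes, and it was -3.11 ± 0.28 with the index in the model, the second probe set that stayed called. AT5G04810, a pentatricopeptide repeat protein of plastids, gave 5.07, 4.61 and 5.11 against 7.23, 7.49 and 6.58, a difference of -2.17 ± 0.23 (adjusted p = 0.000303). Wildtype in white light and under UV-B were alike for it, at 7.10 ± 0.20 and 7.10 ± 0.47 (SD, n = 3). AT2G38465, with no role stated here, gave 4.00, 4.38 and 3.80 against 5.47, 6.82 and 6.05, a difference of -2.05 ± 0.35 (adjusted p = 0.00478), and uvr8-1 under UV-B stood between them at 5.44 ± 0.43 (SD, n = 3). With the index the differences of AT5G04810 and AT2G38465 were -1.50 and -2.96.

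Several other large falls had smaller covariate differences. CCT1, a regulatory enzyme of phosphatidylcholine synthesis, gave 3.03, 3.07 and 3.68 in hy5-1 and 4.80, 5.74 and 5.37 in wildtype under UV-B. The difference was -2.04 ± 0.41 (adjusted p = 0.0119) and it was -0.75 ± 0.90 with the index in the model. The plastid gene rpl36, for a ribosomal protein of chloroplasts, gave 7.17, 7.28 and 7.97 against 9.20, 9.47 and 10.09, a difference of -2.11 ± 0.45 (adjusted p = 0.0158) that was -0.27 ± 0.93 with the index. For both genes hy5-1 replicate 3, the hy5-1 array with the lowest index, was the nearest to wildtype. AT3G45160 differed by -2.06 ± 0.36 (adjusted p = 0.00605), AT3G60300 by -1.96 ± 0.38 (adjusted p = 0.00982) and AT3G05060, a nucleolar protein of the NOP58 type, by -1.92 ± 0.47 (adjusted p = 0.0265). Their covariate differences were -1.25, -0.99 and -1.49. The calls of rpl36, CCT1 and AT3G05060 were lost without hy5-1 replicate 1 (adjusted p = 0.0642, 0.0505 and 0.0556) and without hy5-1 replicate 2 (0.0677, 0.0549 and 0.112). That of rpl36 was also lost without wildtype replicate 3 (0.0527), and those of CCT1 and AT3G05060 without wildtype replicate 2 (0.0534 and 0.104).

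Tubulins, the subunits of microtubules, were lower in hy5-1. Of 7 measured tubulins, 5 were lower and none was higher (4.07% and 2.67% over all genes), with a median difference of -1.01 beside 0.05 over all genes. TUB5 gave 4.89, 4.88 and 5.73 in hy5-1 and 6.84, 7.21 and 6.94 in wildtype under UV-B, a difference of -1.83 ± 0.27 (adjusted p = 0.00253). TUB7 gave 5.45, 5.34 and 5.67 against 6.95, 7.63 and 6.71, a difference of -1.61 ± 0.31 (adjusted p = 0.0098). The groups did not overlap for either gene. The other lower members were TUB6 (-1.41 ± 0.32), TUA1 (-1.01 ± 0.22) and TUA6 (-0.95 ± 0.27), with adjusted p of 0.021, 0.0185 and 0.0468. TUB9 and TUB1 differed by -0.68 ± 0.36 and -0.37 ± 0.36 and did not pass the test (adjusted p = 0.261 and 0.556). The calls of TUB6 and TUA1 were lost without hy5-1 replicate 2 (adjusted p = 0.0814 and 0.088) or wildtype replicate 2 (0.089 and 0.0635), that of TUB6 also without hy5-1 replicate 1 (0.0624), and that of TUA6 without any array but hy5-1 replicate 3 (up to 0.185). TUB5 averaged 8.86 ± 0.23 in wildtype in white light, above wildtype under UV-B, and 7.25 ± 0.32 in uvr8-1 under UV-B (SD, n = 3). With the index in the model the differences of TUB5, TUB7, TUB6, TUA1 and TUA6 were -0.55, -0.86, -0.76, -0.43 and 0.01, all smaller in size than without it. The count of lower tubulins was 3 without hy5-1 replicate 1, 2 without hy5-1 replicate 2, 2 without wildtype replicate 2 and 0 with hy5-1 replicates 1 and 2 both left out.

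Of 6 measured histone genes, 3 were lower and none was higher (4.07% and 2.67% over all genes), with a median difference of -0.26. HTB11, a histone of the H2B class, gave 5.12, 4.86 and 4.92 in hy5-1 and 5.78, 5.80 and 5.88 in wildtype under UV-B, against 7.23 ± 0.06 in wildtype in white light (SD, n = 3). The difference of -0.86 ± 0.11 (adjusted p = 0.00112) was -1.06 with the index in the model. HTB2 and HTB1 differed by -0.89 ± 0.19 and -0.52 ± 0.14 (adjusted p = 0.0169 and 0.0452). With the index they were -0.46 and -0.15. HTB2 lost its call without hy5-1 replicate 1 (adjusted p = 0.073) or 2 (0.0724), and HTB1 without any array but hy5-1 replicate 3, with an adjusted p of up to 0.177. The other members, HTB4, HTR12 and HIS1-3, differed by 0.17, 0.00 and 0.28 and did not pass the test.

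Genes of the chloroplast genome were mostly not called. Of 69 measured, 2 were lower, rpl36 and rpl22, and none was higher, a share no larger than the 4.07% lower over all genes, with a median difference of -0.21. The gene rpl22, for another ribosomal protein, gave 6.80, 7.25 and 7.86 in hy5-1 and 8.68, 8.65 and 8.89 in wildtype, a difference of -1.43 ± 0.34 (adjusted p = 0.0243) that turned to 0.19 with the index in the model and was lost without any array but hy5-1 replicate 3 (adjusted p up to 0.0998). Among 7 nuclear genes for antenna and photosystem proteins, 1 was lower (4.07% over all genes) and none was higher. The antenna protein gene LHCB4.3 gave 5.59, 6.32 and 5.72 in hy5-1 and 6.41, 7.37 and 6.86 in wildtype, a difference of -1.01 ± 0.26 (adjusted p = 0.0327). It was -1.53 with the index. The call held without hy5-1 replicate 2 or wildtype replicate 1 and was lost without any other array, with an adjusted p of up to 0.126. LHCB4.1 and LHCB4.2 differed by -0.06 ± 0.10 and 0.37 ± 0.29 (adjusted p = 0.75 and 0.462). None of 5 genes of chlorophyll and heme synthesis or 2 of carotenoid synthesis was called in the limma fit, and none of these 7 had an unadjusted p under 0.05.

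Of 3 measured genes of oxidative and mitochondrial stress, 2 were lower (4.07% over all genes). AT2G21640, used as a marker of oxidative stress, gave 7.49, 7.66 and 7.91 in hy5-1 and 9.19, 9.05 and 8.63 in wildtype under UV-B, against 4.04 ± 0.13 in wildtype in white light (SD, n = 3). The hy5-1 arrays were thus below wildtype UV-B and far above white light. The difference was -1.27 ± 0.22 (adjusted p = 0.0049), while uvr8-1 under UV-B averaged 9.36 ± 0.49 (SD, n = 3). GSTU25, a glutathione transferase, gave 4.89, 5.01 and 5.53 against 5.69, 6.69 and 7.15, a difference of -1.36 ± 0.33 (adjusted p = 0.0246). Its call held without hy5-1 replicate 3 or wildtype replicate 1 and was lost without any other array (up to 0.0955). The zinc finger factor gene STZ differed by -0.04 and did not pass the test. Of 13 glutathione transferases, 2 were lower and 1 was higher (4.07% and 2.67% over all genes). Beside GSTU25, GSTU28 was lower (-1.24 ± 0.22, adjusted p = 0.00648), with 4.90, 4.38 and 4.92 in hy5-1 against 5.73, 6.39 and 5.77 in wildtype. GSTU27 was higher (0.81 ± 0.22, adjusted p = 0.0386), a call lost without any array but hy5-1 replicate 3 (adjusted p up to 0.145). AT2G21640, GSTU25, GSTU28 and GSTU27 differed by -0.76, -1.32, -0.95 and 0.34 with the index in the model.

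AT4G12490, of the EARLI1 family of lipid-transfer-like proteins, gave 9.21, 9.60 and 9.65 in hy5-1 and 5.775, 5.195 and 7.874 in wildtype under UV-B. The groups did not overlap, which the choice of the largest rises required, and wildtype replicate 3 stood well above replicates 1 and 2. The difference of 3.21 ± 0.68, or 9.23-fold, was the largest rise (adjusted p = 0.0149), and it was 2.80 ± 1.64 with the index in the model. The call was lost without hy5-1 replicate 2 (adjusted p = 0.0606) or wildtype replicate 2 (0.0653). AT4G22470, of a related lipid transfer and protease inhibitor family, gave 5.81, 5.39 and 3.94 in hy5-1 and 3.15, 2.72 and 3.03 in wildtype. It was dim in all 4 other groups, and hy5-1 replicate 3 was the lowest of the hy5-1 arrays. The difference was 2.08 ± 0.34 (adjusted p = 0.00403) and 0.26 ± 0.57 with the index.

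**Figure D4:**
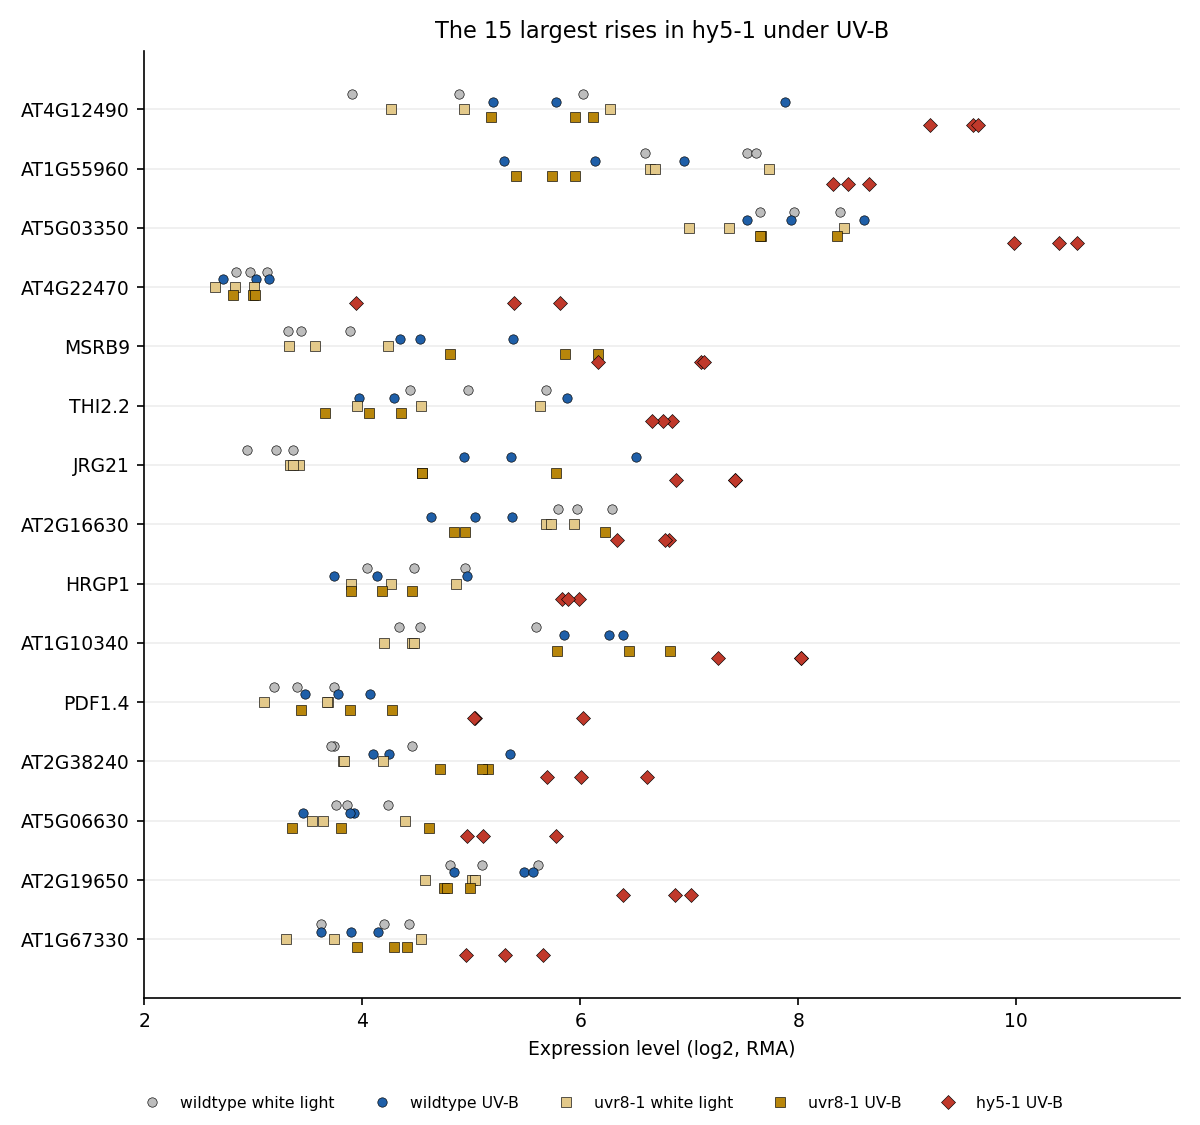
Expression level (x axis, log2 RMA value) on each array of the 5 groups for the 15 genes with the largest rises in hy5-1 against wildtype under UV-B, with 1 point per array. The hy5-1 arrays of AT4G12490 lie between 9.21 and 9.65 and those of wildtype under UV-B between 5.195 and 7.874.

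AT5G03350, a legume lectin family protein, gave 10.39, 10.56 and 9.98 in hy5-1 and 7.93, 7.53 and 8.60 in wildtype under UV-B. Wildtype in white light averaged 7.997 ± 0.365 and uvr8-1 under UV-B 7.89 ± 0.41 (SD, n = 3), so hy5-1 alone stood high. The difference was 2.29 ± 0.36 (adjusted p = 0.00351) and 2.01 with the index in the model. AT1G55960, of a family with a START lipid-binding domain, gave 8.65, 8.46 and 8.32 against 6.95, 6.14 and 5.30, a difference of 2.35 ± 0.39 (adjusted p = 0.00473) and 1.98 with the index. It averaged 7.25 ± 0.56 in wildtype in white light (SD, n = 3), and the hy5-1 arrays were above that level too. AT1G10340, an ankyrin repeat protein, gave 8.02, 8.03 and 7.27 against 5.85, 6.39 and 6.26, a difference of 1.61 ± 0.33 (adjusted p = 0.0134). With the index it was 0.63, and the call was lost without hy5-1 replicate 1 (adjusted p = 0.0567) or replicate 2 (0.064).

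THI2.2, a thionin, gave 6.84, 6.76 and 6.65 in hy5-1 and 5.88, 3.97 and 4.29 in wildtype under UV-B, a difference of 2.04 ± 0.49 (adjusted p = 0.0248). PDF1.4, of the plant defensin family, gave 5.03, 6.02 and 5.03 against 3.78, 3.48 and 4.07, a difference of 1.58 ± 0.29 (adjusted p = 0.00751). The groups did not overlap for either gene, which the choice of the largest rises required. JRG21, a jasmonate oxidase that inactivates the hormone, gave 7.42, 6.88 and 7.42 against 4.93, 5.36 and 6.52, a difference of 1.64 ± 0.37 (adjusted p = 0.0206). AT2G38240, another jasmonate oxidase, gave 6.613, 6.002 and 5.693 against 4.10, 4.25 and 5.35, a difference of 1.54 ± 0.32 (adjusted p = 0.0143). JRG21 averaged 3.17 ± 0.21 in wildtype in white light (SD, n = 3), below the wildtype UV-B arrays, which in turn lay below those of hy5-1. Of 4 measured jasmonate oxidases, a group chosen after its values were seen, these 2 were higher (2.67% over all genes), while AT5G05600 and AT3G11180 differed by 0.93 and 0.03 and did not pass the test (adjusted p = 0.22 and 0.898). Without wildtype replicate 3, which at 7.885 lay above all 3 hy5-1 arrays, AT5G05600 was called too, at 1.61 (adjusted p = 0.0112). Without any other array AT5G05600 was not called (adjusted p up to 0.595), and with the index it differed by 0.45. Its mean was 7.48 in hy5-1 and 7.47 in uvr8-1 under UV-B. The differences with the index in the model were 1.84 and 1.88 for THI2.2 and JRG21, and 0.76 and 0.63 for PDF1.4 and AT2G38240. THI2.2 lost its call without any array but hy5-1 replicate 3 and wildtype replicate 1 (adjusted p up to 0.102). JRG21 lost it without hy5-1 replicate 1 (0.0764), wildtype replicate 1 (0.0627) or wildtype replicate 2 (0.0783), and AT2G38240 without hy5-1 replicate 1 (0.0624) or wildtype replicate 2 (0.0617). Few of the listed defence markers were measured. PDF1.2 and THI2.1, the 2 measured of 16 genes listed for jasmonate and wounding, differed by 0.14 and 0.17, and WRKY53, the 1 measured of 15 genes listed for salicylate and pathogens, by 0.50, and none passed the test (adjusted p = 0.711, 0.575 and 0.656).

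HRGP1, an extensin-type hydroxyproline-rich glycoprotein, gave 5.83, 5.99 and 5.89 in hy5-1 and 4.96, 3.74 and 4.13 in wildtype under UV-B, a difference of 1.62 ± 0.31 (adjusted p = 0.00939). AT5G06630, of the same type, gave 4.97, 5.78 and 5.11 against 3.92, 3.46 and 3.89, a difference of 1.53 ± 0.32 (adjusted p = 0.0137). The probe sets of both are of a class that can bind similar sequences, so their signal may be shared with other extensins. AT2G16630, a proline-rich cell wall protein of guard cells, gave 6.34, 6.82 and 6.78 against 5.37, 5.03 and 4.63, a difference of 1.63 ± 0.31 (adjusted p = 0.0086). AT1G67330, of a family of polysaccharide methyltransferases, gave 5.31, 5.66 and 4.95 against 3.900, 3.617 and 4.141, a difference of 1.42 ± 0.30 (adjusted p = 0.014). With the index in the model these 4 differences were 1.60, 0.77, 2.07 and 0.30, so those of AT5G06630 and AT1G67330 were smaller than before. The calls of AT5G06630 and AT1G67330 were lost without hy5-1 replicate 2 (adjusted p = 0.0675 and 0.069) or wildtype replicate 2 (0.0592 and 0.0603).

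The listed families of the growing cell wall were mostly not called. None of 14 expansins and none of 8 cellulose synthases and related genes passed the test, with 4 and 1 of them at an unadjusted p under 0.05 in limma. Of 9 xyloglucan endotransglucosylases, 1 was lower and 1 higher (4.07% and 2.67% over all genes). XTH32 was lower (-1.04 ± 0.28, adjusted p = 0.0377) and XTH33 higher (0.54 ± 0.15, adjusted p = 0.0417). XTH33 gave 4.22, 3.82 and 3.68 in hy5-1 and 3.43, 3.20 and 3.48 in wildtype, whose arrays thus lay under the level of 3.74 given above. The call of XTH32 was lost without hy5-1 replicate 1 (adjusted p = 0.119), hy5-1 replicate 2 (0.133) or wildtype replicate 2 (0.11), and that of XTH33 without any array but hy5-1 replicate 3 (up to 0.149), and with the index they differed by -0.80 and 0.08.

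MSRB9, a methionine sulfoxide reductase that repairs oxidised proteins, gave 7.11, 7.14 and 6.16 in hy5-1 and 4.35, 4.53 and 5.38 in wildtype under UV-B. Wildtype in white light averaged 3.55 ± 0.30 and uvr8-1 under UV-B 5.61 ± 0.72 (SD, n = 3). The difference was 2.05 ± 0.39 (adjusted p = 0.00871) and 0.90 ± 0.86 with the index. AT2G19650, of a cysteine and histidine rich domain family, gave 6.87, 7.01 and 6.39 against 5.48, 5.57 and 4.84, a difference of 1.46 ± 0.24 (adjusted p = 0.00406) and 0.76 with the index. Among probe sets with no paired gene, 263268_at gave 6.01, 7.32 and 5.39 in hy5-1 and 3.34, 3.46 and 3.56 in wildtype, a difference of 2.79 ± 0.39 (adjusted p = 0.0019) that was 0.68 with the index in the model. The unpaired probe set 254805_at gave 8.90, 9.08 and 8.78 against 6.64, 6.74 and 6.89, a difference of 2.16 ± 0.27 (adjusted p = 0.000902) and 1.29 with the index. Wildtype in white light averaged 3.19 ± 0.21 for it (SD, n = 3), below its wildtype UV-B arrays, and those of hy5-1 stood higher still. None of the 15 largest rises was called in either direction between uvr8-1 and wildtype under UV-B in limma (lowest adjusted p = 0.394, for MSRB9). This count, too, stands without the share over all genes in uvr8-1 and is no separate result.

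Single members of further families differed, where 4.07% of all genes were lower and 2.67% higher. Counts as small as these are no result about the families. WES1, an enzyme that conjugates auxin to amino acids, gave 8.10, 7.36 and 7.96 in hy5-1 and 6.47, 6.94 and 6.88 in wildtype and was the 1 higher of 12 auxin genes (1.04 ± 0.24, adjusted p = 0.0226). Its call was lost without hy5-1 replicate 1 (adjusted p = 0.0928), hy5-1 replicate 3 (0.0518) or wildtype replicate 1 (0.0683). CML41, a calmodulin-like protein, gave 4.89, 4.92 and 4.35 against 3.56, 3.37 and 3.27 and was the 1 higher of 7 (1.32 ± 0.22, adjusted p = 0.00416). Of 24 cytochromes P450, CYP71B36 was higher (0.82 ± 0.17, adjusted p = 0.0154) and CYP71B5 lower (-0.96 ± 0.19, adjusted p = 0.0119). With the index in the model these were -0.17 and -0.35. CYP71B36 gave 3.658, 4.285 and 3.444 in hy5-1 and 2.752, 3.095 and 3.085 in wildtype, whose arrays thus lay under the level of 3.74 given above. The CYP71B5 call was lost without hy5-1 replicate 1 (adjusted p = 0.0533) or 2 (0.0546). Of 9 U-box ubiquitin ligases, PUB19 was higher (0.77 ± 0.19, adjusted p = 0.0292, lost without any array but hy5-1 replicates 2 and 3, up to 0.0773) and PUB49 lower (-0.71 ± 0.14, adjusted p = 0.012, and 0.0533 without hy5-1 replicate 1). WRKY47 was the 1 higher of 6 WRKY factors (0.58 ± 0.16, adjusted p = 0.0422) and lost its call without any 1 of the 6 arrays. It was dim, with 3.63, 3.78 and 3.62 in hy5-1 and 3.21, 2.94 and 3.14 in wildtype, near or under the level of 3.74 given above. With the index WES1, CML41, PUB19, PUB49 and WRKY47 differed by 1.28, 0.89, 0.38, -0.63 and 0.66. None of 14 SWEET sugar transporters or 5 bHLH factors passed the test, with 1 and 0 of them at an unadjusted p under 0.05 in limma.

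Of 5 measured reference genes, 1 was higher in hy5-1 and none was lower (2.67% and 4.07% over all genes). AT4G34270 gave 7.44, 7.41 and 7.16 in hy5-1 against 6.98, 6.92 and 6.84 in wildtype, a difference of 0.43 ± 0.11 (adjusted p = 0.0399). This difference was 0.03 with the index in the model, and its call was lost without any array but hy5-1 replicate 3 (adjusted p up to 0.137). The other 4 differed by -0.26 to 0.17 and did not pass the test. The 30 largest changes had adjusted p of 1.13e-06 to 0.0265, and 12 of them lost the call without at least 1 array. Called without each array in turn were 10 of the 15 falls and 8 of the 15 rises. With the index in the model all 30 kept their sign. They were picked for large differences, however, and some covariate values lay within their error of zero, such as 0.26 ± 0.57 for AT4G22470. Every hy5-1 array had a higher index than all other arrays, so these tallies cannot separate the index from genotype. Of the falls, 10 kept at least 0.7 times the first difference and 2 kept under 0.5 times, and of the rises these numbers were 7 and 6. In 2 of the 15 falls the hy5-1 mean, and in 1 of the 15 rises the wildtype mean, lay under the dim limit of 3.74, where a difference on an array can be understated.

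**Figure D5:**
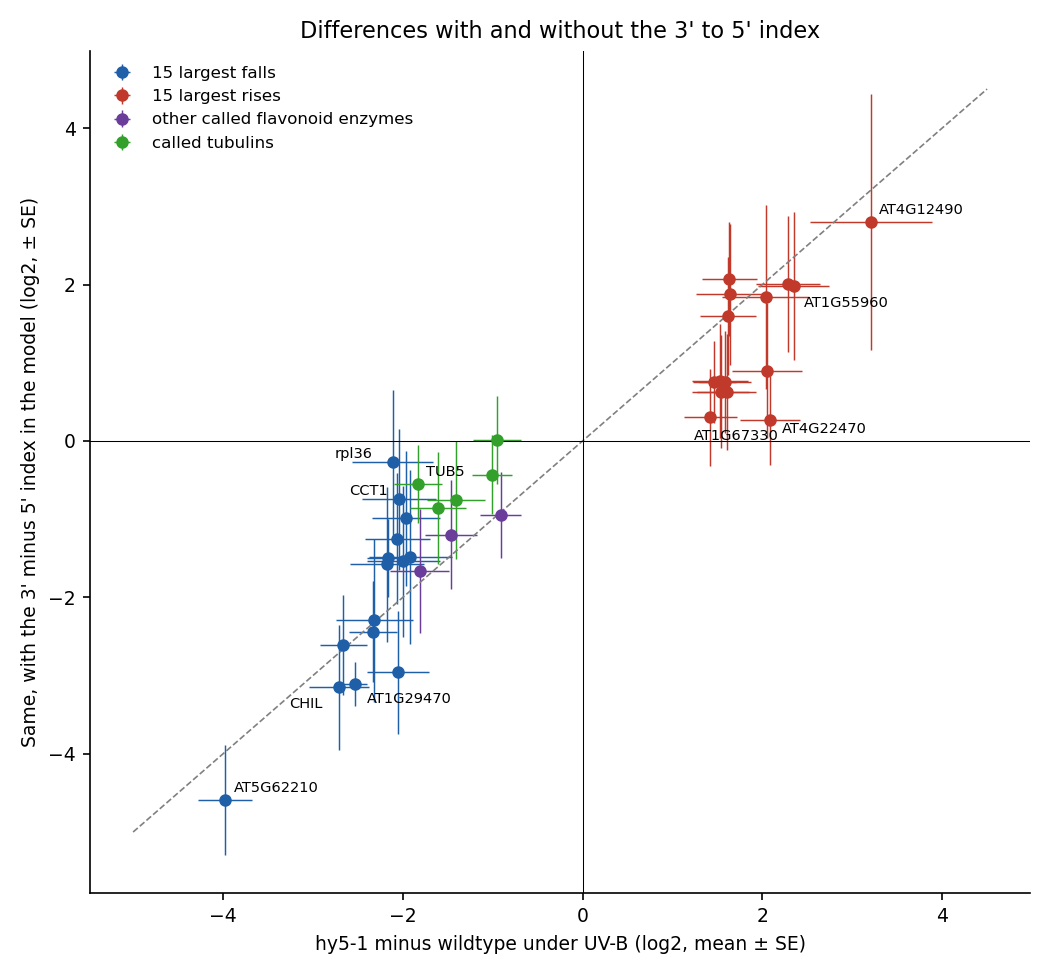
The hy5-1 minus wildtype difference under UV-B in log2 units without (x axis) and with (y axis) the 3' minus 5' index in the model, with bars of 1 SE, for the 15 largest falls, the 15 largest rises, the other called flavonoid enzymes and the called tubulins. AT5G62210, CHIL and AT1G29470 lie on or beyond the dashed line of equal values, while rpl36 at -0.27 and AT4G22470 at 0.26 lie near zero on the y axis.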

How the data were processed

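RNA of 15 leaf samples was measured on Affymetrix ATH1 arrays. The deposited values are on the log2 scale, and the authors computed them by RMA, per the submitters' processing notes. Version, background step and whether 1 run held all arrays were not given in the sources used here. Values ran from 1.99 to 13.1 and array medians from 4.31 to 4.40. RMA sets the arrays to a common distribution, so a change shared by most transcripts does not show. The number of arrays limits the precision.

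After 64 control probe sets were removed, 22746 were tested without a filter. The annotation paired 13513 with 1 gene, 503 with several and 8730 with none. Symbols came from the RefSeq table of TAIR10.1, which matched 13436 of the 13513. Without a named build, no positions are given. All 15 arrays entered 1 model with group means in limma 3.58.1 in R 4.3.3 (10 residual and 3.09 prior degrees of freedom), 2-sided, with Benjamini-Hochberg adjustment over all probe sets and calls at an adjusted p under 0.05. The fit was tested on simulated data. Values after ± are standard errors of differences unless SD is written. Control transcripts were compared by exact permutation.

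For each gene the brightest of its single-gene probe sets (by the mean of all arrays) was used. Named are the 15 largest rises and 15 largest falls of called genes with no overlap between groups, HYH, HY5, UVR8 and COP1 where measured, up to 4 members of each of 43 lists and families with the smallest p, and the 2 highest and 2 lowest called unpaired probe sets. Members named beyond these 4, and those that missed the threshold, complete the counts of their lists. The lists held 335 genes, of which 62 were paired with a probe set of their own and so counted as measured. The members, lists and families were chosen with earlier results of these data known, and family patterns were later corrected for mismatched symbols. Of the lists, flavonoid regulators, seed markers and vascular markers had no member that the annotation paired with a probe set of its own. Such genes may still be on the arrays, among the 8730 probe sets paired with no gene. For ethylene response factors and cytosolic ribosomal proteins no gene symbol matched the family pattern, which does not mean that the arrays lack them. In families matched by symbol, members named only by locus number are not counted. Lists with measured members and none called, beside those in the report, were photoprotection and DNA repair, nitrogen, sulfur and copper, cold and abscisic acid response, leaf senescence, gibberellin, heat shock proteins, NAC factors and MYB factors. Of these, 1 member, SAG29 of leaf senescence, had an unadjusted p under 0.05 in limma. A planned description of promoter motifs was not run because no promoter sequences were at hand.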

Additional observations from a re-analysis of the deposited data

How the results depend on the processing

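The counts of 631 higher and 1095 lower probe sets fell to 223 and 564 in a fit of the 6 compared arrays, to 115 and 402 there with the replicate number as a block, to 76 and 329 with a minimum of 2-fold, to 0 and 2 with the 3' minus 5' index as a covariate, and to 6 and 23 with hy5-1 replicate 3 alone (added after seeing the data). The block in the fit of all 15 arrays gave 1226 higher and 1631 lower, and leaving out the dimmest 40% gave 406 higher. Without 1 array the counts ran from 187 to 772 higher and from 363 to 1241 lower. They were 225 and 478 without hy5-1 replicate 1, 187 and 363 without hy5-1 replicate 2, 223 and 456 without wildtype replicate 2, and 376 higher without wildtype replicate 3. Lower flavonoid enzymes, 6 at first, numbered 0 with the covariate, 3 with the 6 arrays, 1 with these and the replicate block, 0 with hy5-1 replicate 3 alone and 2 to 7 without 1 array. Lower phenylpropanoid genes, 3 at first, numbered 0 with the covariate, 1 with the replicate block in 6 arrays, 1 with hy5-1 replicate 3 alone and 1 to 3 without 1 array. Lower UDP-glycosyltransferases, 7 at first, numbered 0, 2 and 1 under these settings, 4 after quantile normalization and 1 to 7 without 1 array. Lower tubulins, 5 at first, numbered 0 with the covariate, 0 with hy5-1 replicate 3 alone and 2 to 5 without 1 array. The sign turned with the covariate for rpl22 (0.19), CYP71B36 (-0.17), UGT73B1 (0.33) and TUA6 (0.009). The cause of these changes was not tested, and some settings also leave fewer arrays or genes. The index difference of 0.90 was 1.68 for GAPDH, 0.38 for actin and 0.53 for another GAPDH pair added after seeing the data. Equally numbered hy5-1 and wildtype arrays deviated together with r = 0.12, 0.00 and 0.01, so the numbers are not taken to pair hy5-1 with wildtype samples. Not every array correlated best with its own number. This check covered the 6 compared arrays only. For the plastid gene ndhG, replicate 2 was the lowest array of wildtype white light (7.07), wildtype UV-B (6.35), uvr8-1 white light (6.85) and uvr8-1 UV-B (6.21). In hy5-1 it was the highest (7.855). The plastid gene rps4 did not show this order. What the numbers stand for was not tested. Of 210 genes recomputed, 76 were called and 35 of these were called without each of the 6 arrays. Promoter settings were not run.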

Other observations

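The groups in the next sentences were chosen after their values were seen. SDH1-1, the flavoprotein subunit of mitochondrial succinate dehydrogenase, gave 7.83, 7.35 and 7.51 in hy5-1 and 9.41, 9.36 and 9.34 in wildtype under UV-B. White light wildtype averaged 7.22 ± 0.21 and UV-B treated uvr8-1 7.70 ± 0.21 (SD, n = 3), so the wildtype UV-B arrays alone stood high. The difference between hy5-1 and wildtype was -1.81 ± 0.16 (adjusted p = 0.000118) and -1.83 with the 3' minus 5' index in the model. SDH2-1, the iron-sulfur subunit, gave 10.07, 9.81 and 9.68 in hy5-1 and 10.25, 10.65 and 10.57 in wildtype, against 7.63 ± 0.04 in white light (SD, n = 3), so hy5-1 stood nearer to wildtype UV-B than to white light (difference -0.64 ± 0.12, adjusted p = 0.00982). The SDH2-1 difference was -1.075 with the index. Of 4 measured genes of the enzyme these 2 were lower (4.07% over all genes), and SDH1-2 and SDH2-2 differed by -0.17 and -0.07 and did not pass the test.

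Genes of stomata did not move one way. Of 5 measured, 2 were lower and 1 was higher (4.07% and 2.67% over all genes). STOMAGEN, a peptide that promotes stomatal formation, gave 4.52, 4.35 and 4.73 in hy5-1 and 5.85, 6.22 and 5.45 in wildtype under UV-B (-1.30 ± 0.18, adjusted p = 0.00149). The guard cell factor FMA was lower by the test (-0.55 ± 0.15, adjusted p = 0.0475), a call lost without any 1 of the 6 arrays. AT2G16630 was higher (1.63), and SPCH and MUTE, which act earlier in the lineage, differed by 0.21 and 0.27 and did not pass. FMA, SPCH and MUTE were also among the listed cell type markers given above. Of 4 measured B-type methionine sulfoxide reductases, 1 was lower and 1 was higher (4.07% and 2.67% over all genes). MSRB6 was lower (-1.52 ± 0.32, adjusted p = 0.0145, 0.0525 without hy5-1 replicate 2 and 0.054 without wildtype replicate 2) while MSRB9 was higher (2.05 ± 0.39). MSRB5 and MSRB3 differed by -0.03 and -0.32 and did not pass the test. Under UV-B, uvr8-1 was also lower than wildtype for STOMAGEN (-0.75) and MSRB6 (-2.33) in limma (adjusted p = 0.0388 and 0.000846). FMA, AT2G16630 and MSRB9 were not called between uvr8-1 and wildtype (adjusted p = 0.606, 0.832 and 0.394). Of 7 measured extensins 4 were higher (2.67% over all genes, in a group chosen after its values were seen), with differences of 1.62 for HRGP1, 1.53 for AT5G06630, 1.195 for AT4G08410 and 1.09 for AT1G23720, and these 4 probe sets can bind similar sequences. AT5G06630, AT4G08410 and AT1G23720 lost the call without hy5-1 replicate 2 (adjusted p = 0.0675, 0.072 and 0.0951) or wildtype replicate 2 (0.0592, 0.0648 and 0.0757), and AT1G23720 also without wildtype replicate 3 (0.0523). AT4G12500, next to AT4G12490 by its locus number, was higher as well (1.32 ± 0.24, adjusted p = 0.00701). With the index in the model the differences were -0.94 for STOMAGEN, -0.55 for FMA, -1.84 for MSRB6 and 1.66 for AT4G12500. For the extensins they were 1.60 for HRGP1, 0.77 for AT5G06630, 1.185 for AT4G08410 and 0.31 for AT1G23720.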
